A study of Caenorhabditis elegans with 2 samples.

Results

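The 38 genes described here carry the names of ubiquitin and of enzymes that activate, attach or remove it in the nematode Caenorhabditis elegans. Some of them serve ubiquitin-like proteins instead, as described below. The rule that defines them is a naming rule: they are the protein-coding genes that the Ensembl release 115 annotation of the WBcel235 assembly calls ubq, uba, ubc, uev or usp with a number, and they make up 38 of 19973 protein-coding genes on the 6 nuclear chromosomes. There are 2 ubiquitin genes (ubq), 3 genes of activating enzymes (uba), 21 of conjugating enzymes (ubc), 3 of conjugating enzyme variants (uev) and 9 of ubiquitin-specific proteases (usp).

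Binding of the transcription factor SKN-1 was measured by ChIP-seq, in which DNA bound by a tagged protein is recovered with an antibody and sequenced. The material was whole L1 larvae of mixed sex and unstated age from strain OP178, with the transgene wgIs178, which carries eGFP-tagged skn-1 (the labels name skn-1 as the antibody), and the mutation unc-119(ed3) on chromosome III. All animals carried both, there was no treatment, and the labels give 1 group with 2 biological replicates, without saying which cultures they came from. There was therefore no contrast between groups, and no ChIP of untagged worms, so "bound" below means only that a deposited peak lay at the gene. Whole larvae were used, so the cells in which a peak arose are unknown, and read counts were not analysed here, so the depth is unknown.

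Ubiquitin is a small protein that is joined to other proteins in a relay. An activating enzyme charges it, a conjugating enzyme carries it, and a ligase passes it to the target. Chains of ubiquitin send many proteins to the proteasome, and deubiquitinating proteases cut ubiquitin off again. SKN-1, which is related to the Nrf factors of mammals, is known for activating detoxification genes and for raising proteasome gene expression when the proteasome is impaired.

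Peaks lay at the promoters of 20 of these 38 genes. A gene counted as bound when the summit of a peak in the optimal list, which the authors made with a procedure that compares replicates and which holds 3484 peaks, lay in a promoter window. That window reached from 1000 bp before a transcript start to 200 bp past it, and every annotated start had its own. By this rule 20 of 38 genes were bound (52.6%, Wilson 95% interval 37.3 to 67.5, which covers the counting of genes only), against 3007 of all 19973 protein-coding genes (15.1%). Both ubiquitin genes and all 3 activating enzyme genes were bound. So were 8 of 21 conjugating enzyme genes (38.1%, interval 20.8 to 59.1), 1 of 3 variant genes and 6 of 9 protease genes (66.7%, interval 35.4 to 87.9). The intervals of the classes overlap widely, and the classes were not tested against one another.

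The counts were close in the replicates taken alone. Over the 3484 strongest regions of its own list, replicate 1 had a summit in the promoter window of 19 of the 38 genes (50%, against 14.1% of all protein-coding genes), and replicate 2 in that of 22 (57.9%, against 14.9%). In both replicates at once it was 18 of 38 genes (47.4%, against 11.5%). The replicates' summits did not have to lie at the same site of a gene, and at ubq-1 they did not. All of these 18 were also bound in the optimal list. The bound genes missing from a replicate were uba-2 and usp-39, both in replicate 1, where their regions ranked 5145 and 6227.

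Whether bound genes were a majority of the 38 depended on the rule, while every rule tried gave the 38 a larger share than all protein-coding genes. In a narrower window, from 500 bp upstream to 100 bp downstream, 18 genes were bound (47.4%, against 12.2%), and with 2000 bp upstream 22 were (57.9%, against 19.1%). When only the outermost 5' end of each gene had a window, 17 were bound (44.7%, against 14.0%), and when any overlap of the peak with the window counted, 20 were (52.6%, against 15.9%). With only the 1742 strongest optimal peaks, 13 were bound (34.2%, against 8.81%). The narrower window held a summit of replicate 1's strongest regions at 17 genes (44.7%, against 11.3%) and of replicate 2's at 20 (52.6%, against 12.1%).

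**Figure D1:**
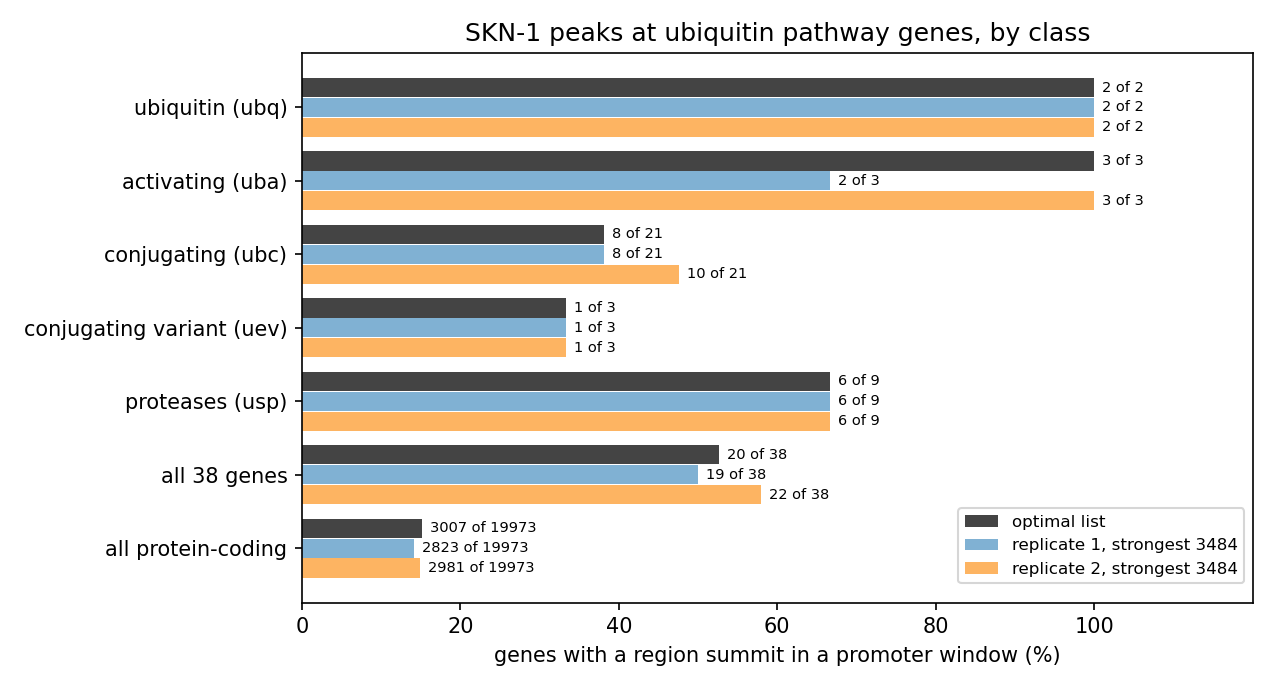
Percentage of genes with a region summit in a promoter window (horizontal axis) for each class of gene, for all 38 genes and for all protein-coding genes, with the number of genes printed beside each bar. Dark bars are the optimal list, and blue and orange bars are the 3484 strongest regions of replicates 1 and 2. All 38 genes together reach 50% to 57.9% in the 3 lists and all protein-coding genes 14.1% to 15.1%.

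Most peaks at these genes were of middling strength. Regions were ranked within each list by the signal value that the authors deposited, with 1 the strongest, and a rank in 1 list is not comparable in scale with another. The strongest peaks of the 20 bound genes ranked from 119 to 2951 of 3484, with a median of 1310, against a median of 1447 over all bound genes. Only 3 of the 38 genes (7.89%, against 3.93% of all protein-coding genes) had a promoter peak among the 696 strongest of the list. With the ranks cut into 5 equal bins, the strongest bin held 15.0% of the 20 bound genes and 26.1% of all bound genes, and the next held 40.0% and 21.9%.

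The strongest peaks belonged to 2 proteases and 1 conjugating enzyme gene. The gene usp-14 (WBGene00006856) encodes a protease that works on the proteasome and trims ubiquitin from its substrates. On chromosome II the peak ran from 14488753 to 14488862 in intergenic sequence, with its summit 118 bp upstream, and ranked 119 in the optimal list, 186 in replicate 1 and 110 in replicate 2. That of usp-4 (WBGene00019259), from 6756494 to 6756789 on chromosome IV, had its summit 669 bp upstream. It ranked 149, and 150 and 166 in the replicates. For ubc-7 (WBGene00006704), a conjugating enzyme of the class that serves degradation at the endoplasmic reticulum in yeast, the summit lay 314 bp upstream, in a peak from 9631333 to 9631628 on chromosome III. It ranked 241, with 490 in replicate 1 and 186 in replicate 2. These 3 were the only genes of the 38 among the 696 strongest optimal peaks, and each was among the 696 strongest regions of both replicates.

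The sequences at 8 bound genes show what lay under the summits. They are the bases within 50 bp of the summit of the gene's strongest peak, read from the RefSeq WBcel235 genome (the same assembly as ce11) and printed on the gene's own strand. Of the first 5, usp-14, usp-4 and ubc-7 are the strongest peaks, and ubq-2 and uba-1 are the best-ranked ubiquitin and activating enzyme genes among those that could be printed. The others, ubq-1, ubc-18 and ubc-20, were added after the values were seen, as the polyubiquitin gene and the next conjugating enzyme genes by rank among those that could be printed. Capitals mark ATCAT or GTCAT, the end of the site to which SKN-1 is known to bind, and TGACNNNGC, the antioxidant response type of site bound by mammalian Nrf factors, on either strand.
usp-14, chrII:14488756-14488856, minus strand: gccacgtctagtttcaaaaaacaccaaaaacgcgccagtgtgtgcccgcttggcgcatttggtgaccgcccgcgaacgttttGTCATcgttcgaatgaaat
usp-4, chrIV:6756592-6756692, plus strand: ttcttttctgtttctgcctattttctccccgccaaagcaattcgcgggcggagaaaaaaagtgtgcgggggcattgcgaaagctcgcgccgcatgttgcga
ubc-7, chrIII:9631431-9631531, minus strand: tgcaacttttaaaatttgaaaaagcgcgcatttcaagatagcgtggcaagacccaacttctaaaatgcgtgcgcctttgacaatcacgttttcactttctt
ubq-2, chrIII:12978945-12979045, minus strand: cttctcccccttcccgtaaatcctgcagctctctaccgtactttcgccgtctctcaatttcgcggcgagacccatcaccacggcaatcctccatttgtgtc
uba-1, chrIV:9993903-9994003, minus strand: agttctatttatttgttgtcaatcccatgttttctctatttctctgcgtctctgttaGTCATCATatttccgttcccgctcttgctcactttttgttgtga
ubq-1, chrIII:5940589-5940689, plus strand: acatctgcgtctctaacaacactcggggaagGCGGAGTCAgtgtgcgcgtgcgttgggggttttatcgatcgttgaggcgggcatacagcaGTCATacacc
ubc-18, chrIII:7068779-7068879, minus strand: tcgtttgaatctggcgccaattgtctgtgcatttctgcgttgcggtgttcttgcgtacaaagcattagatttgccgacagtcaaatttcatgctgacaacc
ubc-20, chrIII:188627-188727, plus strand: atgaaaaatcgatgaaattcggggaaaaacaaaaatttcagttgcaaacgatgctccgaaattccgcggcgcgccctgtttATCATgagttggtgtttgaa

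In usp-14 and ubc-20 the marked letters belong to the longer SKN-1 site, 2 letters A or T followed by TATCAT or TGTCAT. In uba-1 a GTCAT and an ATCAT overlap. In ubq-1 the marked pair is a TGACNNNGC on the opposite strand and a GTCAT. None of the marked letters occur in the stretches of usp-4, ubc-7, ubq-2 and ubc-18. At usp-4 a TGACNNNGC lay 67 bp from the summit, just beyond the printed stretch. Its letters were those of the ubq-1 match read on the other strand, and it is shown here at chrIV:6756697-6756721 on the plus strand.
usp-4, second stretch: ggtttgccTGACTCCGCccacattt

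Searched over 75 bp on each side of the 21 distinct summits at bound genes, the longer SKN-1 site was found at 3 (14.3%), against 9.39% of all optimal summits and 8.40% of the pooled regions below them. The 3 were usp-14, uev-1 and ubc-20, and ubc-20 had 2 matches. ATCAT or GTCAT alone, which every longer site contains, was found at 11 (52.4%, against 42.5% and 45.0%). The order of these shares depended on the window. Within 50 bp of the summit the short site was found at 28.6%, against 31.9% and 33%, and within 150 bp at 57.1%, against 65.6% and 68.5%. The longer site was found at 2 of 21 summits within 50 bp (9.52%), a larger share than the 244 of all 3484 optimal summits, and at 3 of 21 within 150 bp (14.3%), a smaller share than 566 of 3484. Within 75 bp, TGACNNNGC was found at 4 (19.0%, against 3.87% and 2.45%), which were usp-4, ubc-3 with 2 matches, ubc-25 and ubq-1. Within 50 bp its shares were 9.52% and 2.61% of all optimal summits, and within 150 bp 19.0% and 6.17%. The sites TGACTCA and TGAGTCA, of the AP-1 type, were found at 0 of 21, against 2.27% of all optimal summits. All searches covered both strands. With so few summits these shares describe the letters under the peaks, and none was tested. The same windows held a median of 46.4% G and C (23.2% at uba-2 to 56.3% at ubc-3 and ubq-1), against 43.7% over all optimal summits.

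Both genes that encode ubiquitin itself were bound, at weaker peaks. The gene ubq-2 (WBGene00006728) encodes ubiquitin fused to a protein of the large ribosomal subunit. Its peak, from 12978847 to 12979142 of chromosome III, ranked 1382, with 1102 in replicate 1 and 1539 in replicate 2. The summit lay 472 bp upstream of ubq-2 but 167 bp upstream of the divergent neighbour frg-1, whose start was nearer. The gene ubq-1 (WBGene00006727) encodes a head-to-tail chain of ubiquitins that is cut into single units. Its peak, from 5940491 to 5940786 of chromosome III, lay in an intron of ubq-1, 347 bp upstream of the later of its 2 annotated starts, and ranked 2487.

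The replicates placed the region at ubq-1 differently. Replicate 1 had its best region there at rank 722, 34 bp from the pooled summit. Replicate 2 had its nearest region 178 bp away at rank 14321, and its best region in the window, at rank 1954, had its summit 154 bp upstream of the start. Among the 20 bound genes, ubq-1 was the only 1 whose strongest peak had no summit of replicate 2 within 100 bp, and all 20 had a summit of replicate 1 within that distance.

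The 3 activating enzymes belong to different modifiers. The gene uba-1 (WBGene00006699) encodes the enzyme that charges ubiquitin and stands at the head of the pathway. Its peak, from 9993805 to 9994100 of chromosome IV, ranked 2313, with 2942 in replicate 1 and 2524 in replicate 2. It lay in an intron of uba-1, 604 bp upstream of an internal start, and the pooled list held 3 weaker regions in the windows of its 4 starts, at ranks 7564 to 13733. The gene uba-5 (WBGene00020184) encodes the activating enzyme of the ubiquitin-like protein UFM1. Its peak, from 3873823 to 3874118 of chromosome I, also in an intron, lay 394 bp upstream of an internal start and ranked 1555, with 2177 and 1553 in the replicates. The gene uba-2 (WBGene00006700) encodes a subunit of the SUMO activating enzyme. Its peak, from 12741013 to 12741308 of chromosome I, was the weakest of the 20 at rank 2951, with 5145 in replicate 1 and 2982 in replicate 2. That summit lay in an intron of vps-25, an endosomal sorting gene on the opposite strand, 427 bp upstream of uba-2 and just past the start of vps-25.

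At ubq-1, uba-1 and uba-5 the call rested on internal starts. With only the outermost annotated 5' end of each gene, these 3 genes were not bound and the other 17 were. At the peaks of uba-1 and uba-5 the replicates' summits lay 0 to 32 bp away.

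Conjugating enzymes gave the largest class, with bound and unbound genes side by side. Besides ubc-7, the best-ranked was ubc-3 (WBGene00006702), the CDC34-type enzyme that works with cullin ligases in the cell cycle, with a peak from 1697917 to 1698212 of chromosome I, 284 bp upstream. It ranked 739, with 979 in replicate 1 and 650 in replicate 2, although only 79.7% of its window is unique in the genome. Ranks 893 to 927 held a group of 3. The first was ubc-18 (WBGene00006713), whose product acts in pharynx development, with 1507 and 704 in the replicates. The second, ubc-12 (WBGene00006707), carries the ubiquitin-like protein NED-8 and ranked 919, with 800 and 1308. The third, ubc-20 (WBGene00006715), ranked 927, with 1379 and 958.

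The remaining bound conjugating enzymes had weaker peaks. The SUMO conjugating enzyme gene ubc-9 (WBGene00006706) ranked 1533, with 1807 in replicate 1 and 2094 in replicate 2. The gene ubc-25 ranked 1762, with 1247 and 3015, and ubc-6, of an endoplasmic reticulum class, ranked 1807, with 1083 and 3288. Only ubc-6 had 2 optimal peaks in its window, 316 and 109 bp upstream, the second at rank 2542. The stronger region of replicate 1 there lay between those summits, 259 bp upstream, and its other ranked 26578. Replicate 2 had 1 at 315 bp upstream and another, at rank 3675, 28 bp past the start.

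Among the variants, which resemble conjugating enzymes but lack the catalytic cysteine, only uev-1 was bound. The peak of uev-1 (WBGene00006730), from 14789908 to 14790203 of chromosome I, ranked 776, with 1077 and 655 in the replicates, and lay 188 bp upstream. The gene uev-3, known for a kinase pathway in axons, had a pooled region at rank 15569, and uev-2 had none.

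Besides usp-14 and usp-4, 4 protease genes were bound. The gene usp-5, of the type that takes apart free ubiquitin chains, ranked 848 with a summit 322 bp upstream. Of the 12 strongest peaks it had the widest gap between replicates, 3160 in replicate 1 against 393 in replicate 2. The gene usp-3, whose mammalian counterpart acts on histones, ranked 1238, with 770 and 2169. Its summit lay 212 bp upstream of usp-3, inside Y71A12B.30, a gene of another type, and 319 bp upstream of the ribosomal protein gene rps-6. The gene usp-48 ranked 2187, with 3337 and 2181, and usp-39, whose counterparts act in splicing, ranked 2666, with 6227 and 1929.

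**Figure D2:**
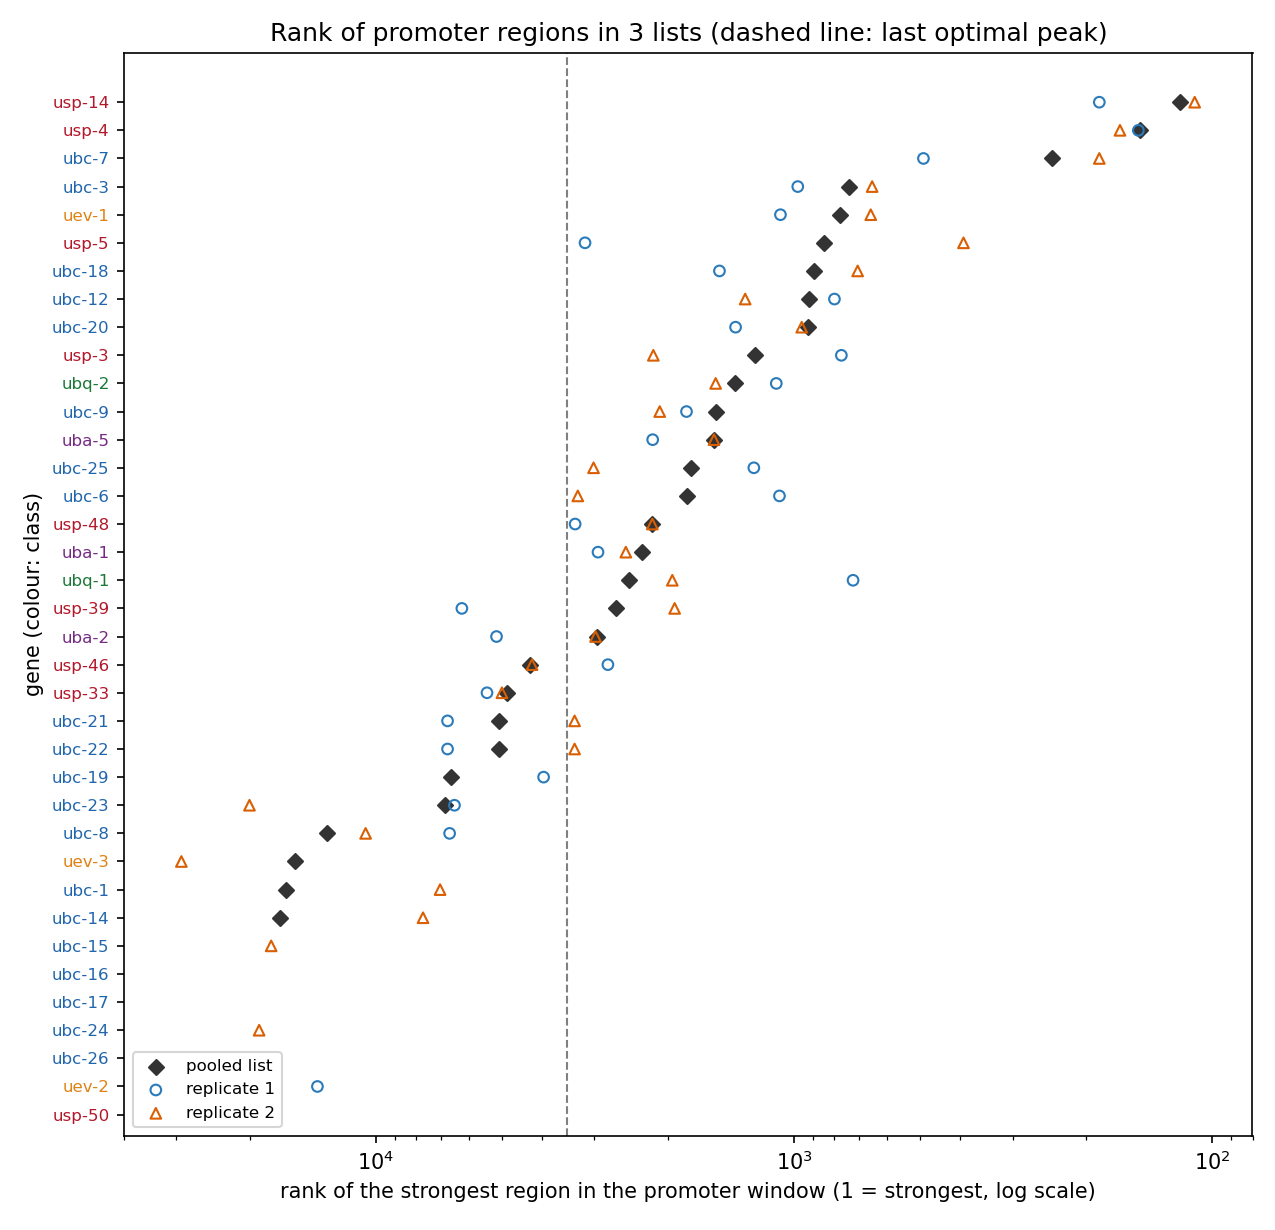
Rank of the strongest region in the promoter window of each gene named in the text (horizontal log axis, strongest to the right), in the pooled list (diamonds), replicate 1 (circles) and replicate 2 (triangles), with gene names coloured by class. The dashed line marks rank 3484, the last optimal peak, and 20 genes have their diamond to the right of it. A gene with no symbol, such as ubc-16, had no region in any of the 3 lists.

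The 18 genes that were not bound ranged from near misses to empty promoters. All 3484 optimal peaks were the 3484 strongest regions of the pooled list, which holds 27729 regions with background among them. In that list 31 of the 38 genes (81.6%, against 44.7% of all protein-coding genes) had some region in a promoter window, so 11 of the 18 had 1 or more. The nearest to the threshold was usp-46, a protease that acts on a glutamate receptor in neurons, at pooled rank 4268, 105 bp upstream. It ranked 2786 in replicate 1, within that replicate's strongest 3484, and 4232 in replicate 2. Just inside the threshold stood uba-2 at 2951.

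Behind usp-46 came genes of the X chromosome. The region at usp-33, shared with the divergent gene gas-1, ranked 4855 in the pooled list, with 5422 and 4994 in the replicates. The neighbours ubc-21 and ubc-22 face away from each other across 462 bp and shared 1 region, at pooled rank 5075, with 6738 in replicate 1 and 3347 in replicate 2. Both genes therefore passed in replicate 2's strongest regions and not in replicate 1's. The region at ubc-23, close to that pair on the chromosome, ranked 6822, with 6486 and 20059.

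Several other unbound genes had a region in only 1 replicate. The region at ubc-19 ranked 6608 and had a counterpart at rank 3970 in replicate 1, whereas replicate 2 had no region in the window. At ubc-8, the best pooled rank was 13074, and both replicates had a region, but 558 and 47 bp upstream. The genes ubc-1, the RAD6-type enzyme, and ubc-14 had pooled ranks of 16363 and 16927, with a region in replicate 2 only. In all, 6 of the 18 unbound genes had a region in the full list of both replicates, which were usp-46, usp-33, ubc-21, ubc-22, ubc-23 and ubc-8. A region in the full list of a single replicate is common. Replicate 1 held 1 at 45.8% of all protein-coding genes, bound ones included, and replicate 2 at 46.2%. The share of genes with a region in both full lists is not given here, so the 6 of 18 have no like share beside them.

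The 7 genes with no pooled region were ubc-15, ubc-16, ubc-17, ubc-24, ubc-26, uev-2 and usp-50. Of these, ubc-15, ubc-24 and uev-2 had a region in 1 replicate, at ranks 17801, 19020 and 13797, and the other 4 had none in any list. The tandem neighbours ubc-26 and ubc-15 were both among the 7. Only 64.7% of the windows of ubc-15 and 66.9% of those of usp-50 is unique in the genome, so a lack of placed reads and a lack of binding cannot be told apart there. Across the 38 genes, 33 had windows at least 90% unique. Outside the window, the closest upstream optimal summits were 1540 bp from ubc-8 and 1874 bp from uev-2, and usp-50 had a peak of rank 30 at 3321 bp upstream.

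Bound genes were unevenly spread over the chromosomes. Chromosome I held 12 of the 38, of which 9 were bound (all genes there, 20.2%), and chromosome III held 7, of which 5 were bound (all genes, 22.5%). On II and on IV, 3 of 6 were bound each (all genes, 14.9% and 14.0%). None of the 5 genes on X (all genes, 12.5%) and neither of the 2 on V (all genes, 10.4%) was bound. These counts are small, and the chromosomes were not tested.

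The summits of all 20 bound genes lay upstream of a start, which at ubq-1, uba-1 and uba-5 was an internal one. The window itself reaches 1000 bp upstream and only 200 bp downstream. Taking the strongest peak of each and the nearest start whose window held it, the distance ran from 118 bp at usp-14 to 669 bp at usp-4, with a median of 299 bp, against 227 bp over all bound genes. Within 300 bp upstream lay 10 of the 20 (50%) and 59.5% of all bound genes. The narrowest fit was at usp-4 and uba-1, which were no longer bound when the window was cut to 500 bp upstream and 100 bp downstream. The summits of 15 of the 20 strongest peaks were intergenic, 4 were in introns and that of usp-3 was in a gene of another type.

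**Figure D3:**
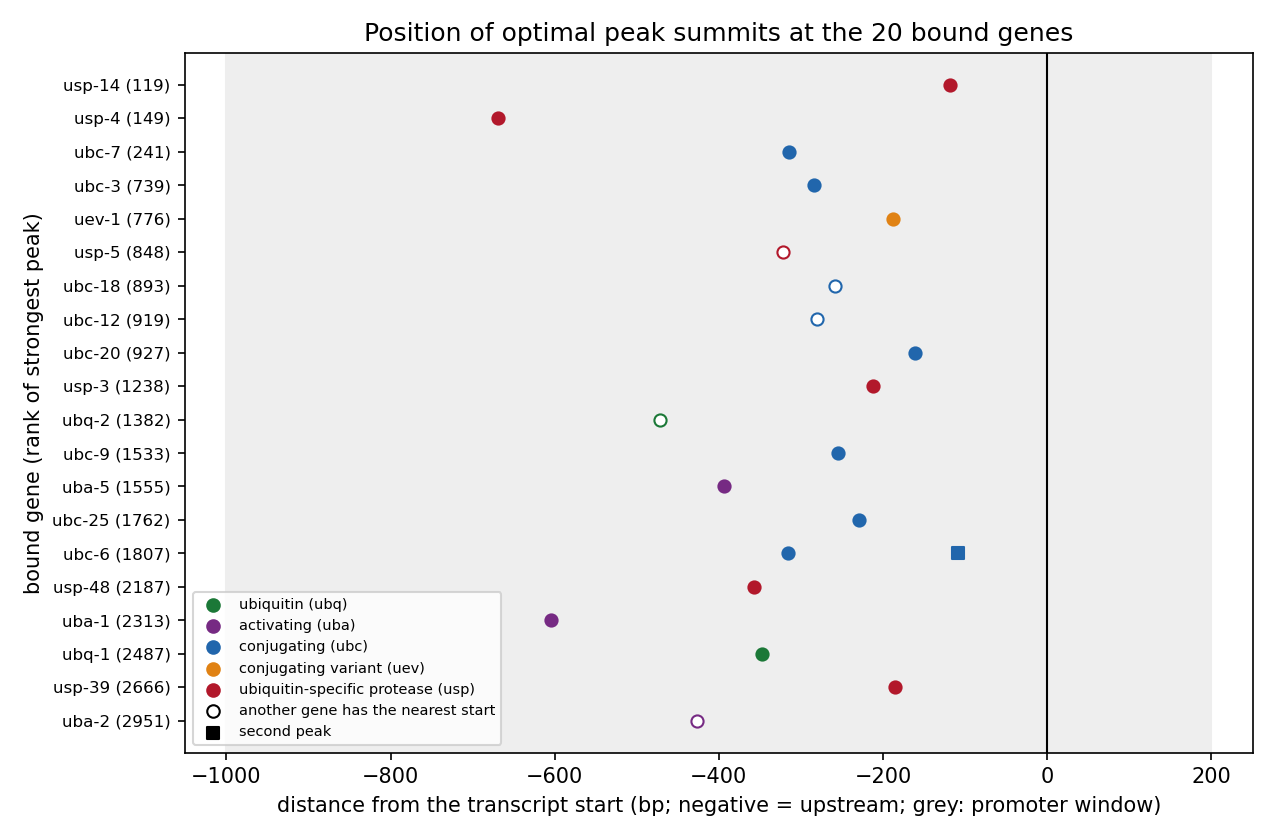
Distance of optimal peak summits from the transcript start (horizontal axis in bp, upstream to the left) at the 20 bound genes, ordered by the rank of the strongest peak, which stands in brackets. For genes with several starts the distance is to the nearest start whose window holds the summit. All summits lie upstream, from 118 to 669 bp for the strongest peaks, and the 5 open symbols mark peaks that lie nearer to the start of another gene.

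Many of the peaks also stood before a neighbouring gene. At 12 of the 20 bound genes (60.0%, against 52.8% of all bound genes) the strongest peak also lay in the promoter window of another protein-coding gene. In each of these 12 a neighbour on the opposite strand was among those genes. They were vnut-1 at usp-14, F39B2.3 at uev-1, nse-1 at usp-5, R01H2.8 at ubc-18, rbm-3.2 at ubc-12, mxl-2 at ubc-20, rps-6 at usp-3, frg-1 at ubq-2, clec-53 at uba-5, aka-1 at ubc-6, F30A10.9 at usp-48 and vps-25 at uba-2. The start of the neighbour was nearer at 5 of them. Those were rbm-3.2 (19 bp from the summit, against 280 bp for ubc-12), nse-1 (157 against 322 bp for usp-5), frg-1 (167 against 472 bp), R01H2.8 (234 against 259 bp for ubc-18) and vps-25.

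With each peak given only to the gene whose start was nearest, 15 of the 38 genes were bound (39.5%, against 11% of all protein-coding genes). With only the 1742 strongest peaks that count was 9 (23.7%, against 6.15%). The files cannot tell which gene of a shared promoter a peak serves. The 8 bound genes whose strongest peak lay in no other gene's window were usp-4, ubc-7, ubc-3, ubc-9, ubc-25, uba-1, ubq-1 and usp-39, and they included 2 of the 3 strongest peaks.

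The same genes led in both replicates. The 3 genes with the best ranks in the optimal list also had the 3 best ranks of the 20 in each replicate, with usp-4 ahead of usp-14 in replicate 1 and behind it in replicate 2. Over all 20, the median best rank in the window was 1174 in replicate 1 and 1546 in replicate 2. Replicate 2 gave the better rank at 12 genes and replicate 1 at 8. Besides usp-5, the ranks lay far apart at usp-39 (6227 and 1929) and at ubc-6 (1083 and 3288).

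**Figure D4:**
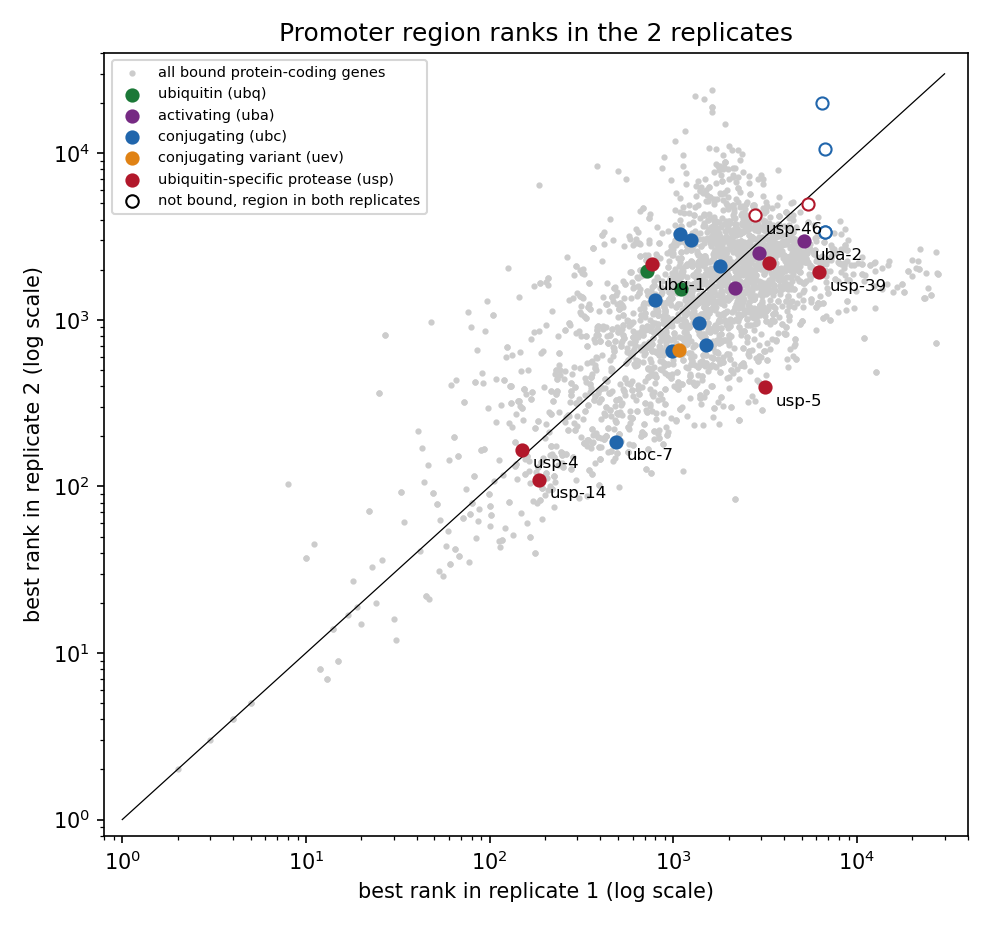
Best rank of a region in the promoter window in replicate 1 (horizontal) and replicate 2 (vertical), both on log axes, with 1 the strongest. Grey points are all bound protein-coding genes with a region in both replicates, filled coloured points are bound genes of the 5 classes, open points are the unbound genes with a region in both, where ubc-21 and ubc-22 coincide, and the line marks equal ranks. The points of usp-14, usp-4 and ubc-7 lie apart at the strong end, and usp-5 lies below the line at 3160 and 393.

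Known partners of these genes fell on both sides of the call. Some genes with related roles carry other names in the annotation, and rfl-1 was picked from them after the values of the 38 were seen. It encodes the activating enzyme subunit for NED-8 and was bound at rank 2322, with 4535 in replicate 1 and 1529 in replicate 2, which says nothing of the others, several of which were not bound. In the NED-8 relay, ned-8 itself (rank 1701), rfl-1, ubc-12 and the ligase cofactor dcn-1 (rank 970) were bound, and ula-1, the partner subunit of rfl-1, was not. In the SUMO relay, uba-2 and ubc-9 were bound, and smo-1, the SUMO gene, and aos-1, the partner subunit of uba-2, were not. For UFM1, uba-5 was bound and ufc-1, the conjugating enzyme, was not.

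Other genes of the pathway were taken from 5 lists. Of 87 listed genes in the annotation, 37 were bound (42.5%, against 15.1% of all protein-coding genes). In the strongest regions of replicate 1 it was 33 (all protein-coding genes, 14.1%), and in those of replicate 2 it was 41 (14.9%). Among other modifiers, 6 of 7 were bound, led by ubl-1 (rank 155), a ubiquitin-like protein fused to a ribosomal protein, the autophagy modifiers lgg-1 (416) and lgg-2 (423), and urm-1 (783). Among ligases and their subunits, 22 of 50 were bound (44.0%), led by the cullin gene cul-1 (rank 68), brc-1 (204), the counterpart of mammalian BRCA1, wwp-1 (304) and the chain-extending ufd-2 (384).

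Other deubiquitinases were bound at 5 of 15 (33.3%, against 15.1% of all protein-coding genes), with rpn-11, the protease of the proteasome lid, at rank 25, otub-2 at 376, math-33 at 438 and ubh-4 at 2420. In the list kept for other activating and conjugating genes, 3 of 9 were bound (33.3%), the autophagy genes atg-16.1 (963), atg-16.2 (2054) and atg-3 (2200). The products of atg-16.1 and atg-16.2 are neither activating nor conjugating enzymes, so 33.3% is not a share of such enzyme genes. Without them, atg-3 alone of that list was bound. The autophagy genes atg-7 and atg-10 of the same list were not bound. Proteases of other modifiers were bound at 1 of 6, ulp-4 at rank 3194, a share of 16.7% that is close to that of all protein-coding genes. With the narrower window, 30 of the 87 were bound, where 12.2% of all protein-coding genes were. The lists were chosen with earlier results of these data known, so the counts describe them and support no rule about the pathway.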

How the data were processed

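The authors deposited region lists in narrowPeak layout. A replicate's list of 30000 regions came, per the deposited readme, from its alignments and 1 control alignment, the pooled list from both replicates, and the optimal list from all 3 through the irreproducible discovery rate procedure. Column 7 is the authors' signal value as deposited. Its scale, the aligner, the caller and the threshold have no statement in the sources used here, so it was used only to rank regions within a list, with ties at the better rank. The ce11 lists were used, and those for ce10 were not analysed here. Fragments of 150 to 350 bp are given per the labels.

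Summits (counted from 1) were matched to promoter windows of Ensembl release 115 genes. A neighbour's nearer start, motifs within 75 bp and the share of 31-base words found once in the genome were computed in Python 3.11.15 with numpy 2.4.6, scipy 1.17.1, pandas 2.3.3 and matplotlib 3.10.9. The assignment steps gave the expected answer for all simulated summits, placed inside and just outside windows. The expected calls used the same window definition, and reading of the deposited lists was not part of that test. No test was run, since there is 1 group. Members, lists and printed sequences were chosen with earlier results of these data known. Every member is named except 1 that is not reported here by name, with full values for the 12 strongest and for all ubq and uba genes, and up to 4 bound members per other list, beside the partners in the NED-8, SUMO and UFM1 relays, rfl-1 among them, which were named after values were seen. The check of the tag and the control could not be made from these lists.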

Additional observations from a re-analysis of the deposited data

How the results depend on the processing

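The count of 20 bound genes ranged, under all alternatives but the stronger peaks alone, from 15 with each peak given to the nearest start to 22 with the window extended to 2000 bp upstream (all protein-coding genes, 19.1%), and was 20 when any overlap of the peak counted. The optimal list was not remade without a replicate. Over the 3484 strongest regions of 1 replicate's own list, the count was 19 in replicate 1 and 22 in replicate 2 (all genes, 14.1% and 14.9%). With only the 1742 strongest optimal peaks, 13 genes were bound (all genes, 8.81%), and 9 by the nearest-start rule (all genes, 6.15%), a fall that follows from having fewer peaks. The 7 genes lost were ubq-1, uba-1, uba-2, ubc-6, ubc-25, usp-39 and usp-48. The summits with the longer SKN-1 site numbered 3, with 2 and 3 in windows of 50 and 150 bp, and rose to 11 with ATCAT or GTCAT alone, which is a shorter site and was less frequent at these genes than at all optimal summits in the windows of 50 and 150 bp. The replicates' counts of 19 and 22 were 17 and 20 in the narrower window (all genes, 11.3% and 12.1%), an alternative chosen after seeing the data. Depth is unknown, so an empty window is no evidence of absent binding.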
